A study of Mus musculus with 4 samples.

Results

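The 10 imprinted growth genes described here, in mouse liver, are *H19*, *Igf2*, *Dlk1*, *Meg3*, *Peg3*, *Mest*, *Plagl1*, *Cdkn1c*, *Grb10* and *Igf2r*. They were chosen by symbol, 10 of the 20642 gene symbols in the deposited table, and each had 1 row there. *H19* was known to fall strongly in these libraries when the genes were chosen, so its values are given as a description, with no test. Nascent transcription was measured by PRO-seq, which labels RNA still held by an engaged RNA polymerase and maps it to its strand, in whole liver on postnatal day 14. There were 4 libraries, 2 from WT mice (WT1 and WT2) and 2 from *Hdac3* KO mice (KO1 and KO2), each from the pooled nuclei of several C57BL/6 mice. WT mice were *Alb-Cre*+ *Hdac3*+/+ and KO mice were *Alb-Cre*+ *Hdac3* fl/- or fl/fl, so both genotypes carried Cre. The albumin promoter directs Cre to hepatocytes, so cells in the pools in which it was never active keep their floxed alleles. In fl/- mice all cells also carry a null allele. *Hdac3* encodes a histone deacetylase that acts in corepressor complexes with NCoR and SMRT.

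Imprinted genes are transcribed mainly from the allele of 1 parent, which is set by DNA methylation laid down in the germ line. In the liver *Igf2*, *Dlk1*, *Peg3*, *Mest* and *Plagl1* are known as genes of the paternal allele, and *H19*, *Meg3*, *Cdkn1c*, *Grb10* and *Igf2r* as genes of the maternal allele. As a rule the paternal set promotes fetal growth and the maternal set restrains it, and several of these genes, *H19* and *Igf2* above all, are strongly transcribed in fetal liver and shut off after birth. The reads were not split by parental allele, so each value is the sum over both.

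Reads on genes numbered 16628518 in KO2, the fewest, to 26190040 in WT2, the most. For each gene 2 regions were counted: the promoter-proximal region, the 50 bp window with the most reads within 500 bp of the transcription start, and the gene body, from 1 kb past the start to the end of the transcript. Values are normalized reads, the count multiplied by 1 factor per library. *Hdac3* itself had 665 and 648 normalized gene body reads in WT and 609 and 582 in KO, which was no called change, and since the reads are not split by exon they do not check the deletion. The markers of hepatocytes, the most abundant cell of the tissue, were all transcribed. Between genotypes the marker lists moved apart in the gene body. There 6 of 8 hepatocyte markers fell and none rose, while 8 of 8 stellate and 6 of 8 endothelial markers rose and none fell. Of all genes tested, 11.4% fell and 10.4% rose in the gene body. In pooled tissue, fewer cells of a type and less transcription per cell cannot be told apart, and the part of this shift in the results below was not tested unless a value is given.

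The miRNAs inside 3 of the genes that moved are shown because their mature sequences lie within the counted gene bodies. These sequences are a small part of the gene bodies, and reads over the miRNAs alone were not counted. Letters in capitals are the seed, bases 2 to 8 of the mature miRNA, and no 2 of the 6 sequences share it. *Mir675* lies in *H19* (chromosome 7), *Mir483* in *Igf2* (chromosome 7) and *Mir335* in *Mest* (chromosome 6). The sequences are those of RefSeq (GRCm38.p6).
mmu-miR-675-5p: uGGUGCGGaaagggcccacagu
mmu-miR-675-3p: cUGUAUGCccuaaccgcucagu
mmu-miR-483-5p: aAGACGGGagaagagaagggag
mmu-miR-483-3p: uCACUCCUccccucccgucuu
mmu-miR-335-5p: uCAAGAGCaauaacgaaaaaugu
mmu-miR-335-3p: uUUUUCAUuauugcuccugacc

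Promoters are shown for genes that moved, since the 2 regions are counted from the annotated start and some of these genes have several. RefSeq (GRCm38.p6) gave promoter windows of 300 bases, 250 before the start and 50 after it, for 8 of the 10 genes. Each was searched on both strands for the core promoter motif TATAAA, for the upstream promoter motif CCAAT and for TGCCGC, the hexamer that ZFP57, a keeper of imprints, binds when it is methylated. The matches are in capitals. Over all 32851 promoter windows, 13.6% held the first of these motifs, 37.4% the second and 11.6% the hexamer. The hexamer was in 6 of the 15 windows of the 8 genes, some of which overlap. These were 2 of 3 windows of *Mest*, 1 of 4 of *Igf2*, 1 of 2 of *Grb10*, 1 of 2 of *Meg3* and the 1 window of *Plagl1*. The 2 of *Mest* overlap. The hexamer holds a CG, and these windows had 13 to 45 CG dinucleotides, beside a median of 7 over all windows. Whether the share differs from that of windows with as many CG was not tested. The first *Igf2* sequence is at the start nearest to that of the deposited transcript, and the second is at a start downstream of it, inside the counted gene body.
*Igf2*, chr7:142661222-142661521, minus strand: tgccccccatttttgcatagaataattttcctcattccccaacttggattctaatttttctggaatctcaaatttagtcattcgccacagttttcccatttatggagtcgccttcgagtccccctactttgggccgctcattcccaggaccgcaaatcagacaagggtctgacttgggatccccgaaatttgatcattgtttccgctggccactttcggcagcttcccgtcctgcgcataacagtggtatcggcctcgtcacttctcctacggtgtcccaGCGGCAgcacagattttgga
*Igf2*, chr7:142657447-142657746, minus strand: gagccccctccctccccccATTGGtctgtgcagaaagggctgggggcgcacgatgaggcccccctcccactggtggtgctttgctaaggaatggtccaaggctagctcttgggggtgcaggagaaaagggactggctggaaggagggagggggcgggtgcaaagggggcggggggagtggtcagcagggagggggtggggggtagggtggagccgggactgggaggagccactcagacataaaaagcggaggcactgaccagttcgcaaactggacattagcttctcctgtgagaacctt
*Peg3*, chr7:6730370-6730669, minus strand: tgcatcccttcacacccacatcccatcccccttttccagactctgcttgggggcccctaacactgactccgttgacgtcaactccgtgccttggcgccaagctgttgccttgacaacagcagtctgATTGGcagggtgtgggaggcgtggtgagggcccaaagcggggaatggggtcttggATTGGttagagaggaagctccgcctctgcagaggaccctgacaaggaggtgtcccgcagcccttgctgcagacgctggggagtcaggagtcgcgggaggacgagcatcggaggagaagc
*Mest*, chr6:30737800-30738099, plus strand: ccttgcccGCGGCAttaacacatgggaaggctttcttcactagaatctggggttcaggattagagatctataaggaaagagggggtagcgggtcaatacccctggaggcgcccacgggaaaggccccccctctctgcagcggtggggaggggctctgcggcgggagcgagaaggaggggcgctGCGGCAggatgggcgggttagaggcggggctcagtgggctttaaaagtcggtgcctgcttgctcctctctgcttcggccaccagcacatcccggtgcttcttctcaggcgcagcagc
*Plagl1*, chr10:13090582-13090881, plus strand: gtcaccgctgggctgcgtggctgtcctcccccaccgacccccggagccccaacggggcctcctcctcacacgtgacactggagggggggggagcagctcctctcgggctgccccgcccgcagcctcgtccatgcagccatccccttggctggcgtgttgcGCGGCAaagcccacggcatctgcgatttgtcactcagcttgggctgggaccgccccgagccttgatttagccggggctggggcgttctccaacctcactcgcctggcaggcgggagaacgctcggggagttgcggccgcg

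Of the 10 genes, 9 were active. An active gene had reads in its promoter-proximal window and, averaged over the libraries, more than 4 normalized reads per kb of gene body. *Dlk1* was not. A gene was called when its limma adjusted p over all 12705 active genes was under 0.05 and its absolute log2 fold change, KO over WT, was over 0.6. Leaving out *H19*, which was chosen with its fall known, 8 active genes remain. These were also chosen with earlier results of these data known, so the counts and adjusted p-values given for them are descriptions. In the gene body *Igf2* and *Peg3* fell and *Mest* and *Plagl1* rose, 2 and 2 of 8, while 11.4% of all active genes were called down and 10.4% up. In the promoter-proximal region *Igf2* fell and *Plagl1* rose, 1 and 1 of 8, beside 2.2% of active genes called down and 25.8% called up. The median log2 fold change over the 8 genes was 0.15 in the gene body and 0.42 in the promoter-proximal region, beside -0.09 and 0.56 over all active genes.

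**Figure D1:**
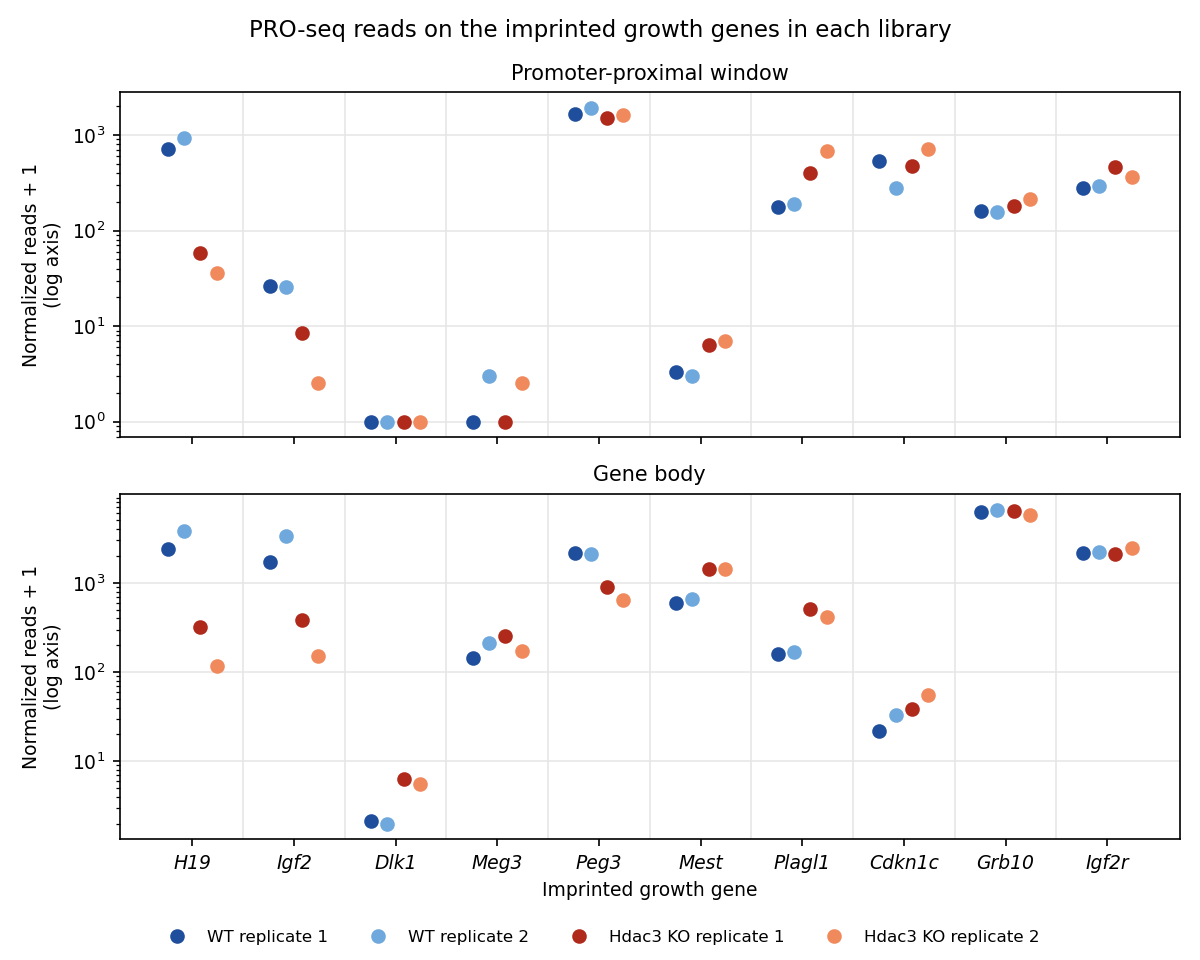
Normalized PRO-seq reads plus 1 (log axis) of the 10 genes in the promoter-proximal window (top) and the gene body (bottom); each point is 1 library, blue for WT and red or orange for Hdac3 KO. The KO points of *H19* and *Igf2* lie below the WT points in both regions, those of *Plagl1* lie above them in both, and *Peg3* separates in the gene body by more than in the promoter-proximal window.

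*H19* is a non-coding RNA of the maternal allele and host of *Mir675* (GENCODE M21, chr7:142575529-142578143, minus strand). Its gene body had 2411 and 3837 normalized reads in WT and 319 and 115 in KO. The promoter-proximal window had 719 and 934 reads in WT and 57.3 and 34.9 in KO. The genotypes did not overlap in either region, and KO2 was lower than KO1 in both. On the log2(value + 1) scale the KO value was 15.8-fold lower in the gene body (log2 fold change -3.98, SE 0.27) and 17.9-fold lower in the promoter-proximal region (-4.16, SE 0.32). The pausing index, the read density of the promoter-proximal region over that of the gene body, was 9.64 and 7.86 in WT and 5.79 and 9.78 in KO and thus overlapped. Its log2 difference of -0.19 (SE 0.38) turned to 0.19 without KO1.

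*Igf2*, the fetal growth factor of the paternal allele, lies next to *H19* and shares its imprinting control region and enhancers (GENCODE M21, chr7:142650766-142666816, minus strand). The outermost annotated starts of the 2 genes are 88.7 kb apart. The *Igf2* gene body had 1711 and 3352 reads in WT and 382 and 149 in KO, a fall on the log2(value + 1) scale (log2 fold change -3.32, SE 0.28, adjusted p = 1.91e-09). WT2 was the higher WT library and KO2 the lower KO library for *Igf2*, as for *H19*, and the genotypes did not overlap. The promoter-proximal window had 25.2 and 25 reads in WT and 7.43 and 1.52 in KO, where the last value is 1 sequenced read (log2 fold change -2.50, SE 0.47, adjusted p = 9.75e-06). Without KO2 this fall was -1.63 with an adjusted p of 0.0677, no longer a call, and DESeq2 gave *Igf2* no adjusted p in this region.

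The *Igf2* promoter-proximal window covers only part of its starts. RefSeq lists 4, and the deposited gene body of 9268 bp is nearest to the 9504 bp that the start at 142661271 would give. Reads from the starts at 142658804 and 142657496 are therefore counted in the gene body, and the low pausing index of *Igf2* (2.74 and 1.38 in WT, 3.60 and 1.89 in KO) holds them in its denominator. Its log2 difference was 0.82 (SE 0.45, adjusted p = 0.174).

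Close to this pair, *Mrpl23*, a gene of the mitochondrial ribosome that is not tied to growth control, had 215 and 236 gene body reads in WT and 143 and 158 in KO (log2 fold change -0.58, SE 0.18), just short of the fold threshold, which it passed without WT1 (-0.65). *Nctc1*, a non-coding gene between *Mrpl23* and *H19*, had 9.18 and 17 gene body reads in WT and 7.43 and 0 in KO and was not active. *Ins2*, the insulin gene on the other side of *Igf2*, had no read in any library.

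*Peg3*, a zinc finger protein of the paternal allele, fell in the gene body and did not pass the test in the promoter-proximal window (GENCODE M21, chr7:6703892-6730431, minus strand). Its gene body had 2174 and 2114 reads in WT and 887 and 638 in KO, 2.85-fold lower (log2 fold change -1.51, SE 0.13, adjusted p = 5.10e-09). The promoter-proximal window had 1676 and 1934 reads in WT and 1518 and 1603 in KO, the highest values of the 10 genes in KO and in WT (log2 fold change -0.21, SE 0.27, adjusted p = 0.555). The deposited gene body of 23460 bp is 2068 bp shorter than the annotated start printed above would give, so the counted transcript differs from that annotation at its start or its end. The pausing index was 362 and 429 in WT and 803 and 1180 in KO. It was the only call for this measure among the 8 genes other than *H19* (log2 difference 1.30, SE 0.39, adjusted p = 0.0192), beside 11.2% of active genes called up and 0.543% called down. The median log2 difference of the pausing index over all active genes was 0.61. When each region was scaled by its own median ratio, so that the median promoter-proximal change went from 0.56 to 0.00, the pausing index of *Peg3* differed by 0.65 (adjusted p = 0.309) and its promoter-proximal window fell by 0.78 on the log2 scale (adjusted p = 0.0193). The pausing index call was also lost without WT1 (adjusted p = 0.303), without WT2 (0.473) and without KO2 (0.170).

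*Usp29*, a paternally expressed gene that starts 147 bp from *Peg3* on the other strand, also had fewer reads in KO. Its gene body had 227 and 213 reads in WT and 66.8 and 42.5 in KO, and its promoter-proximal window 63.1 and 62 in WT and 22.3 and 6.07 in KO. *Zim1*, the maternally expressed neighbour, had 40.2 and 60 gene body reads in WT and 8.49 and 10.6 in KO. The genotypes did not overlap in the gene body for either gene, but neither was active, so neither was tested. *Zfp28*, the next gene beyond *Zim1* with many reads, rose in the gene body from 96.4 and 139 to 255 and 190 (log2 fold change 0.92, SE 0.21), a call that was lost without KO1 (0.71, adjusted p = 0.106).

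*Plagl1*, a zinc finger transcription factor of the paternal allele that is known to act on other imprinted genes, rose in both regions (GENCODE M21, chr10:13060504-13131694, plus strand). The gene body had 157 and 165 reads in WT and 505 and 410 in KO, 2.81-fold higher (log2 fold change 1.49, SE 0.16, adjusted p = 1.30e-07). The promoter-proximal window had 177 and 191 reads in WT and 396 and 685 in KO, 2.82-fold higher (log2 SE 0.31, adjusted p = 4.96e-05). WT replicates lay close together and both KO libraries lay above them, KO2 highest at the promoter and KO1 highest in the gene body. The promoter-proximal rise exceeded the median of all active genes by 0.94 on the log2 scale. Without KO2 it was 1.10 with an adjusted p of 0.0563, no longer a call.

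*Mest*, a hydrolase of the paternal allele and host of *Mir335*, rose in the gene body (GENCODE M21, chr6:30723547-30748465, plus strand). It had 587 and 666 reads in WT and 1436 and 1438 in KO, 2.30-fold higher (log2 fold change 1.20, SE 0.12, adjusted p = 4.30e-08). The promoter-proximal window had 2, 2, 5 and 4 sequenced reads in WT1, WT2, KO1 and KO2 (log2 fold change 1.09, SE 0.54, adjusted p = 0.107). This window is at the start at 30733506, which gives the deposited gene body length of 13961 bp exactly. The starts at 30738050 and 30738053, the promoter printed above with 2 copies of the ZFP57 hexamer, lie within the counted gene body, so the *Mest* gene body value includes polymerase near those starts. *Copg2*, the convergent gene downstream, had 1354 and 1196 gene body reads in WT and 1106 and 820 in KO (-0.42, SE 0.14) and was not called, though it was without KO1 (-0.63).

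*Dlk1*, a transmembrane protein of the Notch ligand family that marks fetal hepatoblasts, was near zero in all 4 libraries (GENCODE M21, chr12:109452823-109463336, plus strand). It had no promoter-proximal read, and 1, 1, 5 and 3 sequenced reads over its 9514 bp gene body in WT1, WT2, KO1 and KO2. *Meg3*, the non-coding RNA of the maternal allele in the same domain (chr12:109541001-109571726, plus strand), had 142 and 209 gene body reads in WT and 252 and 170 in KO (log2 fold change 0.26, SE 0.21, adjusted p = 0.342). The genotypes overlapped, and *Meg3* had at most 2 sequenced reads in the promoter-proximal window of any library, so no fold is given there. *Rian*, downstream on the same strand, had 192 and 216 gene body reads in WT and 260 and 190 in KO.

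*Dio3*, the thyroid hormone deiodinase at the far end of the *Dlk1* domain, did not follow *Meg3*. Its promoter-proximal window had 73.4 and 59 reads in WT and 7.43 and 4.55 in KO (log2 fold change -3.29, SE 0.43), which was called. *Dio3* passed the activity filter only through WT, with a mean of 13.2 normalized gene body reads per kb there and 0.875 in KO. Its short gene body had 14.9 and 8 reads in WT and 0 and 1.52 in KO, a call that was lost without WT1 and with DESeq2.

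*Cdkn1c*, a cyclin-dependent kinase inhibitor of the maternal allele (GENCODE M21, chr7:143458339-143461050, minus strand), had 530 and 277 promoter-proximal reads in WT and 478 and 708 in KO. These overlapped (log2 fold change 0.60, SE 0.30, adjusted p = 0.103). Its gene body had 20.7 and 32 reads in WT and 37.1 and 54.7 in KO, which did not overlap but missed the adjusted threshold (0.79, SE 0.33, adjusted p = 0.0669). Without WT2 the gene body value was 1.09 with an adjusted p of 0.0149.

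The genes around *Cdkn1c* moved in different directions. *Kcnq1*, a potassium channel gene, rose in the gene body from 2583 and 2652 to 4832 and 4438 reads (log2 fold change 0.82, SE 0.11). *Kcnq1ot1*, the paternal non-coding RNA transcribed from the other strand within *Kcnq1*, had 4968 and 4895 reads in WT and 3722 and 3264 in KO (-0.50, SE 0.11), short of the fold threshold. *Slc22a18*, a transporter, fell from 878 and 936 to 531 and 604 reads (-0.68, SE 0.13), a value that went to -0.60 with other scalings and to -0.58 without KO1, short of the threshold.

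*Grb10*, an adaptor protein that restrains insulin and IGF signalling (GENCODE M21, chr11:11930508-12038683, minus strand), had the most gene body reads of the 10 genes and did not separate by genotype. It had 6252 and 6605 gene body reads in WT and 6420 and 5827 in KO (log2 fold change -0.07, SE 0.11, adjusted p = 0.636). The promoter-proximal window had 159 and 155 reads in WT and 180 and 213 in KO (0.31, SE 0.32, adjusted p = 0.445), a value that turned to -0.25 when each region was scaled by its own median. *Cobl*, an actin nucleator next to *Grb10*, fell in the gene body from 3094 and 2744 to 953 and 858 reads (-1.69, SE 0.12). It passed the activity filter only through WT, with a mean of 12.8 normalized reads per kb there and 3.98 in KO. *Ddc* on the other side had 3682 and 3212 reads in WT and 2981 and 3184 in KO (-0.16, SE 0.11).

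*Igf2r*, the receptor that takes up IGF2 for breakdown in lysosomes (GENCODE M21, chr17:12682406-12769664, minus strand), had 2181 and 2238 gene body reads in WT and 2099 and 2454 in KO (log2 fold change 0.04, SE 0.11, adjusted p = 0.813). Both KO values lay outside the narrow WT range, on opposite sides of it. Its promoter-proximal window had 279 and 292 reads in WT and 463 and 367 in KO, no call (0.53, SE 0.30, adjusted p = 0.162), and the value was -0.04 with each region scaled by its own median. *Airn*, the paternal non-coding RNA that starts inside *Igf2r* on the other strand, rose in the gene body from 2170 and 2728 to 3872 and 3700 reads (0.64, SE 0.12), a call that was lost without WT1 (0.47).

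**Figure D2:**
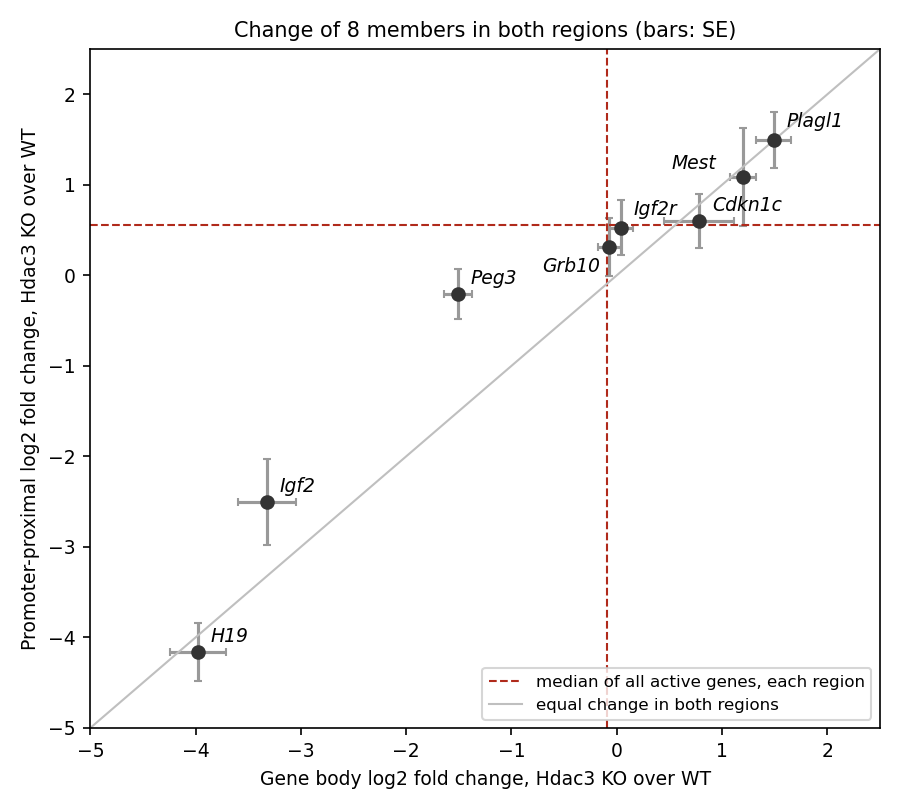
Log2 fold change, Hdac3 KO over WT, in the gene body (x axis) and the promoter-proximal region (y axis) of 8 genes, with bars of 1 SE; *Dlk1* was not active and *Meg3* had too few promoter-proximal reads. Dashed lines are the medians of all 12705 active genes, -0.09 and 0.56, and the grey line marks equal change; *Peg3* lies above that line at -1.51 and -0.21, and *H19* and *Plagl1* lie close to it.

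Compared per length, the genes spanned a wide range of gene body density. In WT the order was *H19* with a mean of 1934 normalized reads per kb, then *Igf2* with 273, *Peg3* with 91.4, *Grb10* with 60.7, *Mest* with 44.9, *Igf2r* with 25.6, *Cdkn1c* with 15.4, *Meg3* with 5.91, *Plagl1* with 4.04 and *Dlk1* with 0.11. No neighbours in this order overlapped between the 2 WT libraries. In KO *H19* had 135 reads per kb and *Mest* 103, and *H19* ranged from 71.4 in KO2 to 198 in KO1, on both sides of *Mest*. *Grb10* followed with 57.8. *Peg3* with 32.5, *Igf2* with 28.6, *Cdkn1c* with 26.8 and *Igf2r* with 26.4 overlapped between libraries. *Plagl1* with 11.5, *Meg3* with 7.10 and *Dlk1* with 0.52 came last. *Igf2* thus lay far above *Igf2r*, the receptor that clears its product, in WT and overlapped with it in KO.

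Since hepatocyte markers fell between genotypes, each gene body value was also set against the summed gene body reads of the 8 hepatocyte markers, which went from 306454 and 313230 to 146912 and 141595 normalized reads. *H19* had 7.87 and 12.2 reads per 1000 hepatocyte marker reads in WT and 2.17 and 0.815 in KO. *Igf2* had 5.58 and 10.7 in WT and 2.60 and 1.05 in KO. Both stayed lower in each KO library than in each WT library. *Peg3* had 7.09 and 6.75 in WT and 6.04 and 4.50 in KO, a smaller gap. *Mest* had 1.92 and 2.13 in WT and 9.78 and 10.2 in KO, and *Plagl1* 0.513 and 0.527 in WT and 3.44 and 2.90 in KO. *Grb10* (20.4 and 21.1 against 43.7 and 41.2) and *Igf2r* (7.12 and 7.14 against 14.3 and 17.3), which were not called on the deposited scale, were higher in KO on this scale. Since the marker sum fell, a gene with the same deposited values in both genotypes is higher in KO on this scale. These ratios are descriptions, without a test.

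**Figure D3:**
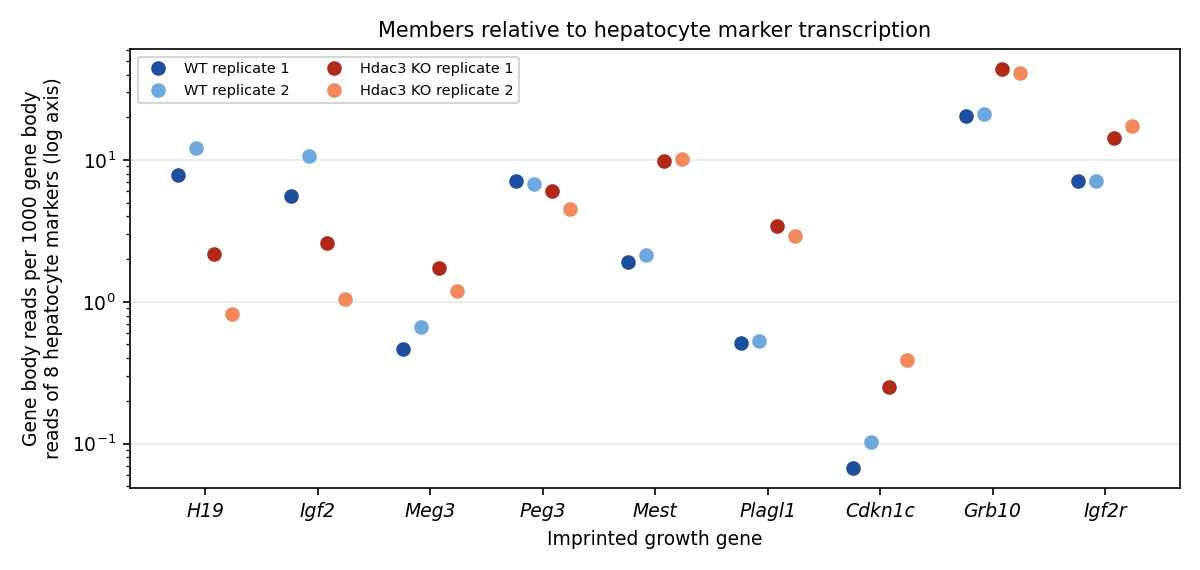
Gene body reads of 9 genes per 1000 gene body reads of 8 hepatocyte markers (log axis); each point is 1 library. *H19*, *Igf2* and *Peg3* are lower in both Hdac3 KO libraries, by the least for *Peg3*, and the other genes are higher.

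The cell types in which *Mest* and *Plagl1* are transcribed cannot be read from pooled liver. Their rises of 1.20 and 1.49 on the log2 scale lay beside medians of 1.44 for the 8 stellate markers and 0.70 for the 8 endothelial markers in the gene body. The summed stellate marker reads went from 9748 and 11062 to 22388 and 20556, and the endothelial ones from 61055 and 66546 to 115132 and 102535. Of 7 active Kupffer cell markers none was called in the gene body (median 0.21). There 4 of 5 active erythroid markers fell (median -1.32), and 2 of 4 active cholangiocyte markers fell (median -0.45). Over all active genes 10.4% were called up in the gene body and 11.4% down. The falls of *H19* and *Igf2* were larger than the median of -1.41 over the hepatocyte markers, of which the lowest was -1.76. The fall of *Peg3*, -1.51, lay between that median and that lowest value. The part of cell composition in the rises and falls was not tested.

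Among 26 further active imprinted genes, out of 51 listed and 48 in the table, there was no common direction. They were listed by symbol, and the reads do not show which of them are imprinted in liver. In the gene body 5 rose and 4 fell (median -0.09, as for all active genes), beside 10.4% and 11.4% of all active genes. In the promoter-proximal region 7 rose and 4 fell (median 0.65), beside 25.8% and 2.2% of all active genes. With each region scaled by its own median only 2 of these promoter-proximal rises were called. The 4 promoter-proximal falls were those of *Dio3*, *Cobl*, *Slc38a4* and *Osbpl5*. *Dio3* and *Cobl* passed the activity filter only through WT. *Osbpl5* had 3, 1, 0 and 0 sequenced promoter-proximal reads in WT1, WT2, KO1 and KO2. *Dcn*, a proteoglycan that is also 1 of the stellate markers, rose most in the gene body, from 690 and 803 to 2437 and 2136 reads (log2 fold change 1.62, SE 0.12). *Peg12*, a paternal gene of the Prader-Willi region, rose from 11.5 and 12 to 31.8 and 34.9 (1.43, SE 0.38). *Slc38a4*, an amino acid transporter of the paternal allele that is abundant in liver, fell from 17328 and 16298 to 9354 and 9082 (-0.87, SE 0.11). *Trappc9*, a vesicle transport gene with many reads, had a gene body log2 fold change of -0.13 (SE 0.11), which was no call. Of the other called gene bodies, *Airn* and *Kcnq1* rose and *Dio3*, *Cobl* and *Slc22a18* fell, as given above. Of these, *Dio3* and *Cobl* passed the activity filter only through WT. The remaining rise was that of *Osbpl5* (0.87), which was named after its value was seen.

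The genes that maintain imprints showed no gene body call, 0 of 16 active, with log2 fold changes from -0.32 to 0.51. Over all active genes 10.4% were called up in the gene body and 11.4% down. *Zfp57* itself, named after its values were seen, had no promoter-proximal read and was therefore not active or tested, but its gene body had 72.3 and 77 reads in WT and 182 and 162 in KO, which did not overlap. *Trim28*, the corepressor that ZFP57 recruits, had 797 and 841 gene body reads in WT and 673 and 639 in KO (-0.32, SE 0.13). *Dnmt3a*, a de novo DNA methyltransferase, had 9920 and 11097 in WT and 12766 and 12092 in KO (0.24, SE 0.11), and *Tet3*, which oxidizes methylcytosine, had 8190 and 8169 in WT and 9588 and 8902 in KO (0.18, SE 0.11). *Zfp445* (-0.18), *Smchd1* (-0.10) and *Arid4a* (-0.02) were not called either. In the promoter-proximal region 4 of 16 rose, *Trim28* (0.79), *Zfp445* (0.75), *Smchd1* (1.09) and *Arid4a* (0.71), beside 25.8% of all active genes. All 4 of these calls were lost with each region scaled by its own median, where *Trim28* was at 0.23, *Zfp445* at 0.18, *Smchd1* at 0.52 and *Arid4a* at 0.14, and likewise without WT1, without WT2 and without KO2.

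Genes of the IGF axis, in which *Igf2*, *Igf2r* and *Grb10* act, were called in both directions. Of 16 other active genes 5 rose and 9 fell in the gene body, with a median of -0.70, beside 10.4% and 11.4% of all active genes. The hepatocyte markers had a median of -1.41 in the gene body, the stellate markers 1.44 and the endothelial markers 0.70, and the part of this shift in the list was not tested. *Igf1*, the postnatal growth factor made by hepatocytes, fell from 16647 and 21492 to 9141 and 7121 reads (-1.23, SE 0.13). The binding proteins *Igfbp2* (-1.63, SE 0.15) and *Igfbp1* (-1.16, SE 0.12) and the adaptor *Grb14* (-1.53, SE 0.11) fell too. *Stc2*, a secreted inhibitor of the protease that frees IGF from its binding proteins, rose from 56.2 and 73 to 206 and 197 (1.64, SE 0.21). The other 4 rises, named after their values were seen, were those of the receptor *Igf1r* (0.90) and of *Igfbp3* (0.99), *Igfbp5* (1.06) and *Igfbp7* (1.03).

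**Figure D4:**
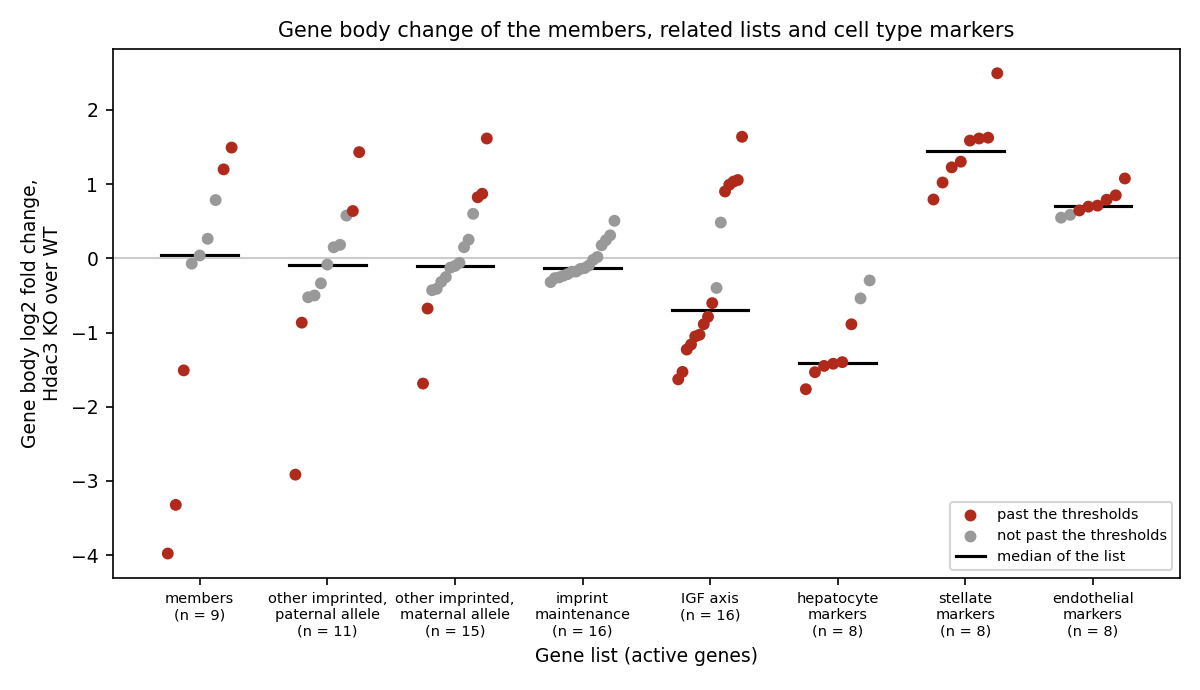
Gene body log2 fold change, Hdac3 KO over WT, of each active gene in 8 lists; points in red passed the thresholds, grey points did not, and bars are list medians. The 9 members, with *H19* lowest and chosen with its fall known, and the 26 other imprinted genes spread to both sides of 0, the imprint maintenance genes stay between -0.32 and 0.51, most hepatocyte markers lie near -1.41, and stellate markers lie above 0.

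*H19* and *Igf2* belong to a set of genes that the liver shuts off after birth, partly through the repressors ZHX2 and ZBTB20. The list for this set held 8 other genes, among them *Zhx2* and *Zbtb20*, which encode these repressors. Of the 8 genes 5 were active, both repressor genes included. In the gene body 1 rose and 2 fell, beside 10.4% and 11.4% of all active genes. *Afp*, alpha-fetoprotein, had 948 and 1390 reads in WT and 722 and 115 in KO (log2 fold change -1.99, SE 0.42). This fall rested on KO2: without it the value was -0.67 with an adjusted p of 0.0563, and DESeq2 gave an adjusted p of 0.354. *Igf2bp3*, an RNA-binding protein of fetal tissue, fell from 5283 and 4461 to 2973 and 2659 (-0.79, SE 0.11). *Hmga2*, a fetal chromatin protein, rose from 428 and 526 to 963 and 920 (0.99, SE 0.14). *Gpc3*, a fetal glypican named after its values were seen, was below the activity threshold and not tested, with 1527 and 1445 gene body reads in WT and 587 and 411 in KO. *Zbtb20* (0.18, SE 0.12) and *Zhx2* (-0.06, SE 0.11) were not called.

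The active genes nearest in pattern to *H19*, by the Euclidean distance over the 8 log2 values of both regions in the 4 libraries, each region centred on its mean, among 11926 genes with at least 50 mean gene body reads, were *Ppp1r3g* (1.57), *Npnt* (1.69), *Igf2* (1.96), *Selenbp2* (2.04) and *Gm1082* (2.09). Nearest to *Igf2* were *Fam47e* (0.997), *AI118078* (1.25), *Agxt2l1* (1.28), *E130309F12Rik* (1.30) and *3930402G23Rik* (1.34), and *H19* was at rank 18. Of these genes *Npnt*, *Gm1082*, *Fam47e*, *AI118078* and *E130309F12Rik* passed the activity filter only through WT. *Fam47e* had 8, 6, 1 and 0 sequenced promoter-proximal reads in WT1, WT2, KO1 and KO2. The measure is a description over 4 libraries.

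The deposited list of 2282 intergenic enhancers, called on reads pooled over all libraries, named none of the 10 genes as the closest gene or within 50 kb. The nearest enhancer centre was 180.0 kb from the start of *H19* and 268.7 kb from that of *Igf2*, the same enhancer for both. Interactions collected in 4DGenome linked 14 enhancers to 8 of the 10 genes, but none of those links was measured in these libraries. The list leaves out regions close to genes, so enhancers inside or just downstream of a gene were not analysed here.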

How the data were processed

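PRO-seq libraries of P14 mouse liver, 2 WT and 2 *Hdac3* KO by their labels, were compared. By the authors' methods, cutadapt trimmed the reads, Bowtie2 placed them on mm10, those on ribosomal RNA loci or mapped with little certainty were dropped, and NRSA counted the rest by strand. The deposited values of WT2 are read counts, since its factor is 1. Those of WT1, KO1 and KO2 are normalized signal that the authors made from counts with the factors 1.147, 1.061 and 1.518, and the deposited densities are signal per bp. Division by the factors gave whole reads (within 0.001) for 100% of the 41640 values of each library, and the reads on genes were 22801905 (WT1), 26190040 (WT2), 24049791 (KO1) and 16628518 (KO2). The deposited enhancer list holds positions, distances and linked genes, with no values of single libraries.

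For each symbol the row that averaged highest in the promoter-proximal region was used. Log2(value + 1) was fitted without a block by limma 3.58.1 under R 4.3.3 (eBayes with a mean-variance trend) on 12705 active genes, and p-values were adjusted over all of them by the Benjamini-Hochberg method. Fold changes are on this scale, which understates those of low genes. With 2 libraries per genotype an exact permutation test of 1 gene cannot go below p = 0.33, so none is given. Libraries are pools of mice, so p-values concern the spread between pools, not between mice. By eBayes that spread is in part borrowed from all active genes, so p-values do not measure each gene's own spread between its pools. In the promoter-proximal region *Cdkn1c*, with 530 and 277 reads in WT, had an SE of 0.296. *Zfp445*, with 310 and 305, had an SE of 0.300. Tables and plots used Python 3.11.15 with pandas 2.3.3 and matplotlib 3.10.9, and the fits were tested on simulated data. Gene positions are from GENCODE M21 (GRCm38), and sequences and start sites from RefSeq (GRCm38.p6).

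Alternatives were count models on the recovered reads (DESeq2 1.42.0 and the quasi-likelihood test of edgeR 4.0.16), other scalings, pseudocounts (0.1 and 10), filters and thresholds, a block for the replicate number, and fits without each of the libraries. The members and the gene lists were chosen with earlier results of these data known. Named were the 10 members, up to 4 called genes with the largest gene body change and the 2 with the most gene body reads of each other list, the 3 nearest symbols on each side of each member where their values bear on it, and the 5 genes most like *H19* and *Igf2*. The result for 1 of these symbols is not reported here.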

Additional observations from a re-analysis of the deposited data

How the results depend on the processing

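With 2 libraries per genotype, every call rests on 4 values, and leaving out a library leaves an arm with 1 sample that is assumed to vary like the others. The gene body changes of *Igf2*, *Peg3*, *Mest* and *Plagl1* kept their direction under each alternative in which they were tested. The counts of members below include *H19*, which was chosen with its fall known. Depth limits *Dlk1* and the promoter-proximal windows of *Meg3*, *Mest* and *Igf2*.

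Without a filter on activity, over 20642 symbols, limma called 0 promoter-proximal regions up and 0 down in the whole table, so the members' promoter-proximal calls went from 1 up and 2 down to 0 and 0, the gene body falls from 3 to 0 and the pausing index rise from 1 to 0. The further imprinted genes then had 0 promoter-proximal rises and 0 falls, 3 gene body rises and 2 gene body falls. With activity required in every library, *Plagl1* was not tested, and the members had 0 promoter-proximal rises and 1 gene body rise, the further imprinted genes 1 promoter-proximal fall and 2 gene body falls. DESeq2, which gave *Igf2* no adjusted p there, called 1 promoter-proximal fall among the members and 1 among the further imprinted genes. With each region scaled by median-of-ratios or by TMM, the members had 0 pausing index rises and the further imprinted genes 2 promoter-proximal rises. Over all active genes this scaling moved the share of rises among promoter-proximal calls from 92.1% to 40.2% (TMM 40.1%). With a pseudocount of 10 the pausing index gave 2 rises and 1 fall among the members.

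Same-numbered libraries did not deviate together (correlation -0.11 in the promoter-proximal region and 0.02 in the gene body), so they share only a number. With the replicate block the members had 0 pausing index rises and the further imprinted genes 2 promoter-proximal rises and 2 falls, and over all active genes promoter-proximal rises went from 3282 to 1772. With the crossed replicate block, added after seeing the data, the members had 2 promoter-proximal rises.

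Leaving out 1 library at a time, the members had 0 to 1 promoter-proximal rises, 1 to 2 promoter-proximal falls and 0 to 1 pausing index rises, and the further imprinted genes 1 to 6 promoter-proximal rises and 1 to 3 falls. Some log2 fold changes near 0 changed sign. Over the libraries left out, the gene body of *Meg3* ranged from -0.020 to 0.55, of *Igf2r* from -0.074 to 0.15, of *Arid4a* from -0.12 to 0.079 and of *Smchd1* from -0.20 to 0.0034, and the pausing index of *H19* from -0.57 to 0.19. With median-of-ratios and with TMM in each region, the promoter-proximal value was -0.25 and -0.25 for *Grb10* and -0.040 and -0.041 for *Igf2r*. In the gene body *Grb10* became 0.0102 (TMM 0.0080), *Arid4a* 0.0613 (TMM 0.0590) and *Zhx2* 0.0250 (TMM 0.0228), and factors from gene bodies gave 0.0102, 0.0613 and 0.0250. The causes were not tested.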
